A study of Homo sapiens with 7 samples.

Results

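The circadian clock genes PER1, PER2, PER3, CRY1, CRY2, ARNTL, CLOCK, NR1D1, NR1D2 and DBP were chosen by symbol, and all 10 were found among the 20072 symbols of the deposited table. Each was read as transcription rate (TR, by GRO-seq of run-on RNA from nuclei), mRNA abundance (RA, by RNA-seq) and translation activity (TA, by sequencing mRNA from polysome fractions). There were 2 TR, 3 RA and 2 TA libraries, 7 in all, each from HCT116, an established line of human colon cancer cells, and all 3 groups were untreated cells in exponential growth in a serum-free medium with epidermal growth factor, insulin and transferrin. Only the cells for TA were exposed to cycloheximide, which halts ribosomes on mRNA, before harvest. A treatment to synchronize the clocks of the cells, and the hour of harvest, are not given in the sources used here, so each library is an average over cells at unknown phases.

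The molecular clock is a loop of transcription and repression. CLOCK and the product of ARNTL, also known as BMAL1, form a dimer that binds E-boxes and switches on the PER, CRY, NR1D and DBP genes. PER and CRY proteins return to the nucleus and repress that dimer, while the nuclear receptors REV-ERB alpha and beta, encoded by NR1D1 and NR1D2, repress ARNTL through AGGTCA motifs. DBP carries the rhythm to output genes by activating promoters with D-boxes. In tissues with a running clock most of these mRNAs rise and fall each day, and PER1, NR1D1 and DBP are among those with the strongest rhythms.

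Sequences of these motifs in the members' own promoters are shown because proteins of the loop act on genes through such motifs. Binding to these stretches was not measured. The windows run from 250 bases before to 50 bases after the start of the RefSeq genes (GRCh38.p14), of which 15 belonged to the 10 members, and each 30-base stretch was placed in GRCh37 by its single exact match on the chromosome. The motifs searched on both strands were the E-box CACGTG, the motif AGGTCA and the D-box TTANGTAA, none of which overlapped another in these windows. Capitals mark the motif.
PER1 E-box: agcacccaggtcCACGTGcgcccgtgtgtg
NR1D2 E-box: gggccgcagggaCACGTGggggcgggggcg
ARNTL AGGTCA: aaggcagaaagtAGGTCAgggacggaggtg
PER2 D-box: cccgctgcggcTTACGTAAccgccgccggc
PER3 D-box: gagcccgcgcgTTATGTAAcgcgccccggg

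The PER1 stretch lies at chr17:8055878-8055907 on the minus strand, in an annotated intron of PER1, with its E-box 173 bases before the RefSeq start. That of NR1D2 is at chr3:23987495-23987524 on the plus strand, in an intron of NR1D2 and of NKIRAS1, and a further E-box lay 155 bases before the same start. The ARNTL stretch, chr11:13299356-13299385 on the plus strand, is exonic and begins its motif 31 bases after the start. The PER2 stretch, chr2:239197236-239197265 on the minus strand, is exonic, and that of PER3, chr1:7844163-7844192 on the plus strand, lies between genes. An E-box was in 2 of the 15 member promoters, those of PER1 and NR1D2, against 7.26% of all 35116 promoters of the same length. AGGTCA was in 4 of the 15 (ARNTL, PER1 and CRY2) against 13.8% of promoters, and the D-box in 3 of the 15 (PER2, PER3 and NR1D2) against 2.18%. The windows of CLOCK, CRY1, NR1D1 and DBP held none of these letters.

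The values were deposited as RPKM, read counts scaled for exon length and library size. For the 18187 genes whose exon length could be solved, of 20056 with values, every value was within 0.001 of a whole number of reads. The library sizes worked out from them lay between 3391897 and 5629982 reads for TR, 20299018 and 22532134 for RA, and 22421062 and 30805391 for TA. The fewest reads behind a member were 47, 258 and 238 in TR, RA and TA, each time for PER3, and the most were 1833 for CLOCK in TR, 5388 for PER1 in RA and 7839 for PER1 in TA. Such numbers bear on counting error only, and since reads carry no molecular identifiers, the number of separate molecules behind them is unknown. Of 6 epithelial markers, EPCAM, CDH1, KRT8, KRT18 and KRT19 had an RA between 47.1 and 977 RPKM, while VIL1 had an RA of 0.0118 RPKM. Among 5 markers of other cell types, COL1A1 had an RA of 11.5 RPKM and the summed level of all 5 was 18.4 in TR, 11.7 in RA and 4.01 in TA, whose part in the results was not tested.

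The levels of the clock genes differed widely within each parameter. In TR, DBP was highest at 74.4 ± 7.58 RPKM (SD, n = 2) and PER3 lowest at 2.59 ± 0.590 RPKM (SD, n = 2). The order by mean TR was DBP, NR1D1, CLOCK, PER1, ARNTL, NR1D2, CRY2, PER2, CRY1 and PER3, and no neighbours in that order overlapped in their libraries. In RA the order was NR1D1, PER1, NR1D2, ARNTL, DBP, CRY1, CLOCK, CRY2, PER2 and PER3, and every pair of neighbours overlapped. In TA, NR1D1 at 64.8 ± 30.2 RPKM (SD, n = 2) and PER1 at 56.0 ± 25.8 RPKM (SD, n = 2) stood first and DBP followed, while CLOCK stood above PER3 alone. The highest member exceeded the lowest 31.8- and 26.5-fold in the TR libraries, between 8.64- and 16.9-fold in RA and 24.5- and 51.8-fold in TA. RPKM values are shares of a library, so a smaller number of cells expressing a gene and less mRNA in each cell cannot be told apart.

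**Figure D1:**
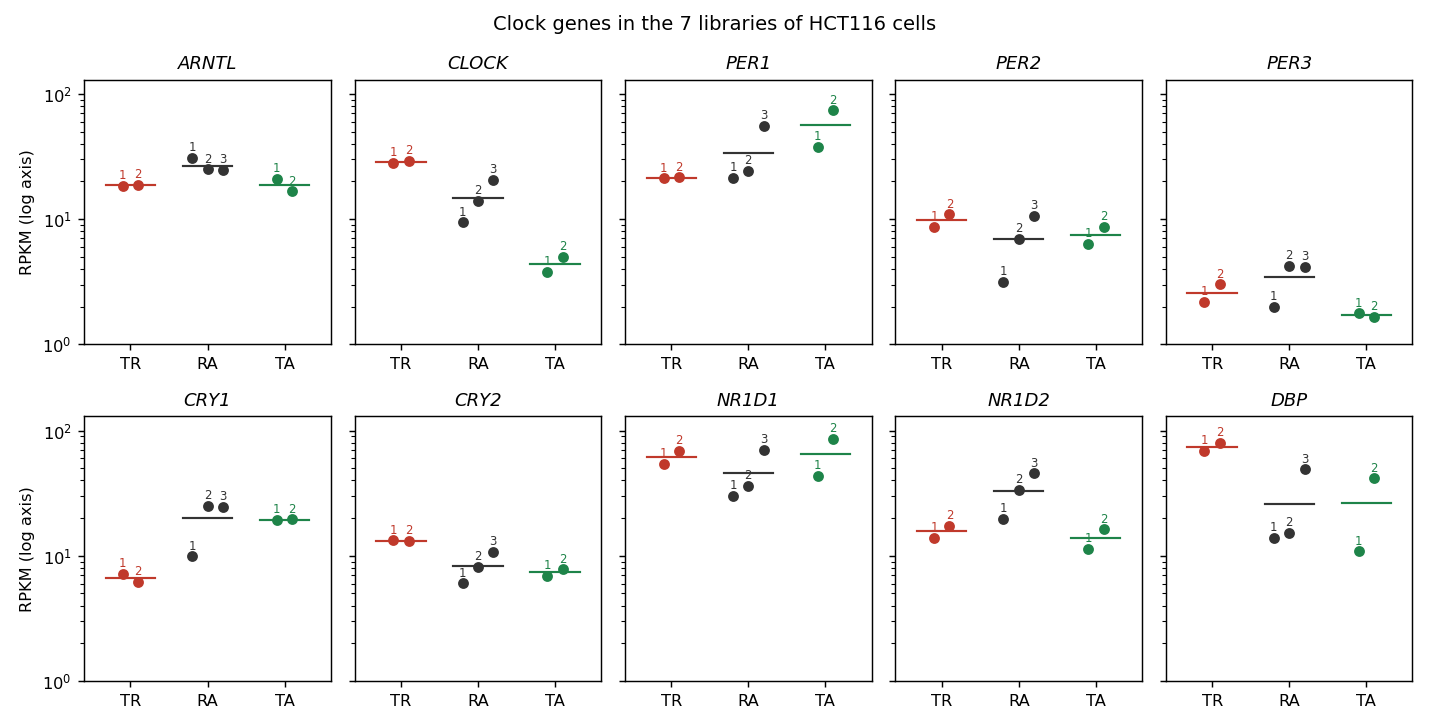
RPKM of the 10 clock genes on a log axis, by parameter, where each point is a library marked with its replicate number and each line is the mean of the replicates. CLOCK falls from a TR of 28.7 to a TA of 4.38 RPKM. RA replicate 3 and TA replicate 2 are the highest of their parameters for PER1, NR1D1 and DBP, and also for CLOCK, PER2, CRY2 and NR1D2. The share of all genes with this pattern was not worked out.

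Changes from TR to RA and from RA to TA were read as log2 ratios from limma on log2(RPKM + 0.1), fitted on all 14305 genes with at least 1 RPKM in some parameter. Of the 10 members, RA was above TR for 3 (ARNTL, CRY1 and NR1D2) and below it for 3 (CLOCK, CRY2 and DBP) at a Benjamini-Hochberg adjusted p under 0.05. Over all genes tested 19.2% were called above and 48.0% below. The same 6 members were those whose RA and TR libraries did not overlap, 3 with RA higher, against 24.3% of all genes, and 3 with RA lower, against 54.9%. For RA to TR the log2 ratios had a median of -0.089 over the members and -0.58 over all genes tested. With either TR library left out, 1 TR library remained and these 6 calls were lost. The share of all genes called in such a fit was not worked out. Without TR replicate 1 the 6 log2 ratios kept their direction and ran from -1.86 for DBP to 1.55 for CRY1. Without TR replicate 2 they also kept it and ran from -1.66 to 1.34. TA was below RA for 2 members, CLOCK and NR1D2, against 29.2% of all genes, and above it for 0, against 6.66%. At an unadjusted p under 0.05 in limma these counts were 4 and 0, but the shares of all genes at that threshold were not worked out. No member had TA libraries wholly above its RA libraries, where 14.4% of all genes did. For TA to RA the medians were -0.084 over the members and -0.37 over all genes tested.

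Both zero points depend on scaling. When each library was centred on its median, every log2 ratio of RA to TR rose by 0.67 and every log2 ratio of TA to RA by 0.50. RA was then above TR for 5 members (ARNTL, PER1, PER3, CRY1 and NR1D2), against 35.4% of all genes, and below it for 0, against 33.7%. TA was above RA for PER1 and below it for CLOCK, where the shares of all genes were 19.0% and 9.81%. ARNTL, CRY1 and NR1D2 in RA against TR, and CLOCK in TA against RA, were thus called on both scales.

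**Figure D2:**
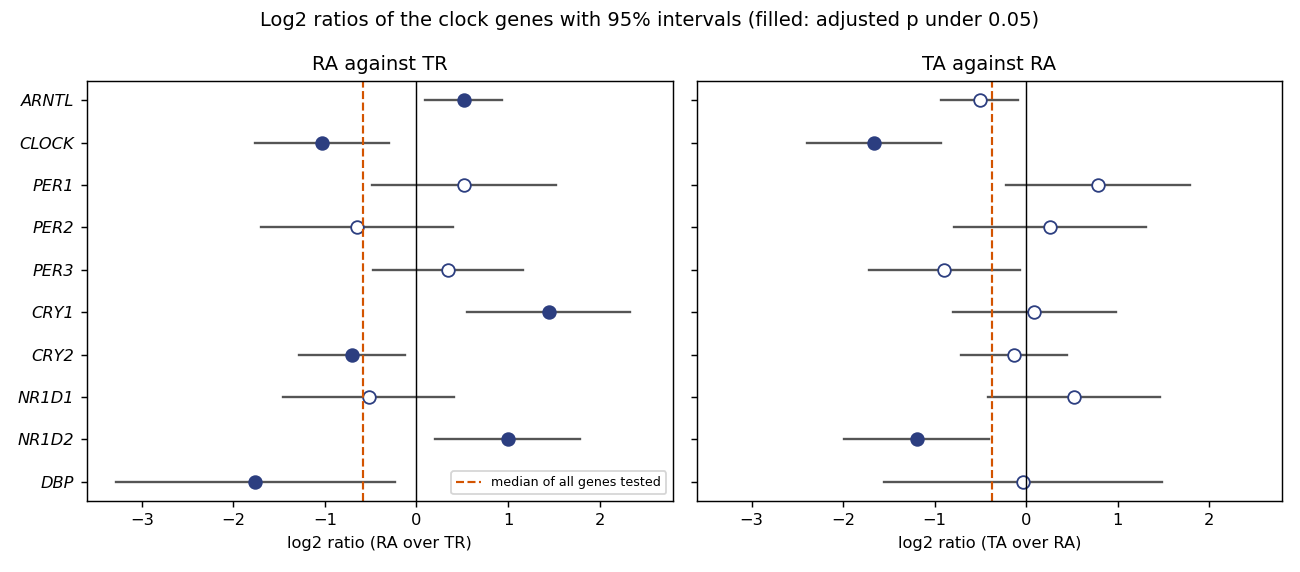
Log2 ratios of RA to TR (left) and of TA to RA (right) for the 10 clock genes with 95% intervals from limma, filled where the adjusted p is under 0.05. The dashed lines are the medians of all genes tested, -0.58 and -0.37, and CLOCK is the only member called below 0 in both panels.

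The positive arm holds ARNTL and CLOCK, whose proteins work as 1 dimer, but their mRNA levels differed between the parameters. ARNTL (chromosome 11, 13298199 to 13408813, GRCh37) had a TR of 18.5 and 18.8 RPKM, an RA of 30.8, 24.97 and 24.7 RPKM and a TA of 21.0 and 16.7 RPKM. Every RA library of ARNTL lay above every TR library and every TA library. Its log2 ratio of RA to TR was 0.52 ± 0.18 (standard error, limma, Benjamini-Hochberg adjusted p = 0.035). This call was lost when TR replicate 1 or 2 or RA replicate 1 or 3 was left out (adjusted p between 0.058 and 0.12), and without a trend in the variances (0.051). The log2 ratio of TA to RA was -0.51 ± 0.18, with an adjusted p of 0.060 in limma.

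CLOCK (chromosome 4, 56294070 to 56413076), which encodes the partner of the ARNTL product, was the member called lower at both steps. Its TR was 28.0 and 29.3 RPKM, its RA 9.40, 14.0 and 20.7 RPKM and its TA 3.77 and 4.998 RPKM. The groups did not overlap at either step, with TR highest and TA lowest. RA was 2.04-fold below TR (log2 ratio -1.03 ± 0.32, limma, adjusted p = 0.019), and TA was 3.17-fold below RA (log2 ratio -1.66 ± 0.32, adjusted p = 0.0073). The second ratio stood at the percentile 3.62 of all genes tested. It was also called in limma after centring (log2 ratio -1.16, adjusted p = 0.026) and had an adjusted p of 0.055 without TA replicate 1. The first was lost on centring, at -0.36 with an adjusted p of 0.33, and without either TR library. As a result, ARNTL held 0.659 and 0.641 times the level of CLOCK in TR, but 1.19 to 3.28 times in RA and 3.34 and 5.57 times in TA.

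The PER genes encode the period proteins of the repressor complex. PER1 (chromosome 17, 8043790 to 8059824) had a TR of 21.2 and 21.5 RPKM, an RA of 21.3, 24.4 and 55.7 RPKM and a TA of 37.8 and 74.2 RPKM. Its TR replicates were nearly equal, while RA replicate 3 and TA replicate 2 stood far above the other libraries of their parameters. The log2 ratios were 0.52 ± 0.43 for RA to TR (limma, adjusted p = 0.32) and 0.79 ± 0.43 for TA to RA (adjusted p = 0.19). The 95% interval of the first ran from -0.48 to 1.52, so a fold change in either direction is within the spread. Without RA replicate 3 the TA to RA ratio of PER1 was 1.22 with an adjusted p of 0.039.

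PER2 (chromosome 2, 239152685 to 239198743) had a TR of 8.69 and 10.9 RPKM, an RA of 3.15, 6.96 and 10.6 RPKM and a TA of 6.35 and 8.63 RPKM. RA replicate 1 was the lowest of the 7 libraries, RA replicate 3 was just under the highest, and the 3 parameters overlapped. Neither ratio passed the test, at -0.65 ± 0.45 for RA to TR (limma, adjusted p = 0.24) and 0.26 ± 0.45 for TA to RA (adjusted p = 0.69). PER3 (chromosome 1, 7844351 to 7905237) was the lowest member in every library, with a TR of 2.17 and 3.004, an RA of 1.99, 4.22 and 4.14 and a TA of 1.77 and 1.66 RPKM. Both TA libraries of PER3 lay below all RA libraries, but the log2 ratio of -0.89 ± 0.36 had an adjusted p of 0.084 in limma, or 0.011 without RA replicate 1, in which the RA of PER3 was lowest. Its log2 ratio of RA to TR was 0.34 ± 0.36 (limma, adjusted p = 0.42), or 0.69 without RA replicate 1 (adjusted p = 0.038). UTS2, on the opposite strand, shares 10.7% of the annotated exon bases of PER3 and had a TR of 2.47, an RA of 0.699 and a TA of 0.446 RPKM.

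The cryptochromes CRY1 and CRY2, which pair with PER proteins and block the CLOCK dimer directly, stood in opposite order in TR and in RA and TA. CRY1 (chromosome 12, 107385142 to 107487327) had a TR of 7.16 and 6.20 RPKM, an RA of 9.89, 25.2 and 24.7 RPKM and a TA of 19.4 and 19.6 RPKM. All RA and TA libraries of CRY1 lay above its TR libraries, with RA replicate 1 the lowest of them. The log2 ratio of RA to TR was 1.45 ± 0.39, or 2.72-fold, the highest of the members (limma, adjusted p = 0.010). The call was lost when either TR library was left out (adjusted p = 0.077 without replicate 1 and 0.12 without replicate 2), but was kept with any single RA library left out. TA and RA of CRY1 overlapped, with a log2 ratio of 0.089 and a 95% interval from -0.80 to 0.98.

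CRY2 (chromosome 11, 45868669 to 45904799) had a TR of 13.3 and 13.2 RPKM, an RA of 6.05, 8.12 and 10.7 RPKM and a TA of 6.93 and 7.80 RPKM. Here TR was the highest parameter, above every RA and TA library. The log2 ratio of RA to TR was -0.71 ± 0.25 (limma, adjusted p = 0.036) and was lost on centring, at -0.034, and without TR replicate 1 or 2 or RA replicate 1 or 2. For TA to RA it was -0.13, with an interval from -0.71 to 0.45. CRY1 was thus at 0.538 and 0.471 times the level of CRY2 in TR, and above CRY2 in all RA libraries (1.64 to 3.10 times) and both TA libraries (2.803 and 2.51 times). Such ratios within a library do not depend on the scaling of libraries. They can still depend on how each assay reads a gene, which was not tested.

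**Figure D3:**
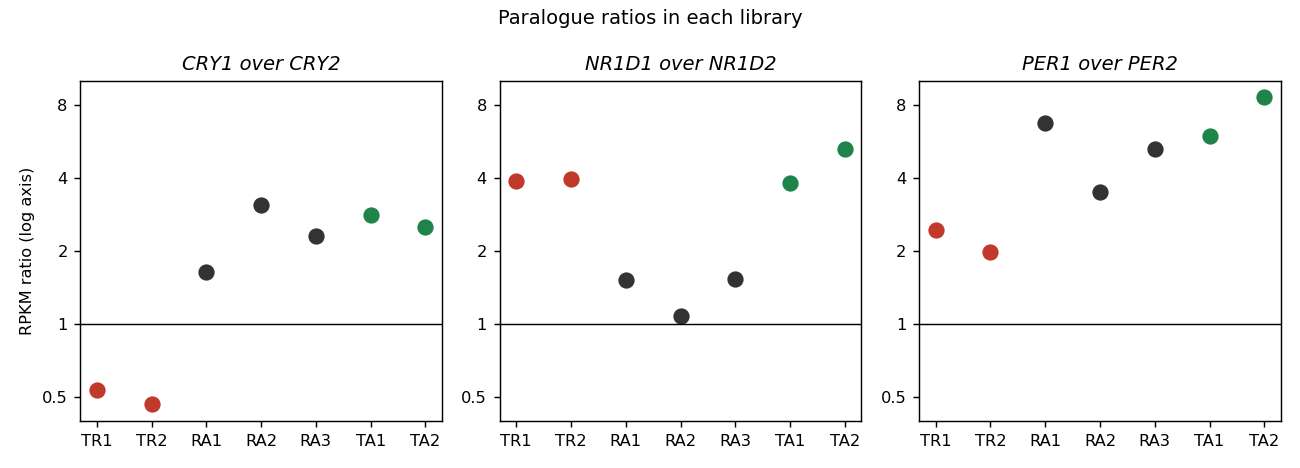
Ratio of the RPKM of paralogues within each library, on a log axis, for CRY1 over CRY2, NR1D1 over NR1D2 and PER1 over PER2, with TR in red, RA in black and TA in green. CRY1 lies below CRY2 in both TR libraries and above it in the other 5, and NR1D1 is nearest to NR1D2 in RA.

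NR1D1 (chromosome 17, 38249046 to 38256842), which encodes REV-ERB alpha, had a TR of 54.1 and 69.0 RPKM, an RA of 30.1, 36.4 and 70.0 RPKM and a TA of 43.4 and 86.1 RPKM. The 3 parameters overlapped, and RA replicate 3 and TA replicate 2 again stood highest in their groups. The log2 ratios were -0.52 ± 0.41 for RA to TR (limma, adjusted p = 0.28) and 0.52 ± 0.41 for TA to RA (adjusted p = 0.34). Without RA replicate 3 the first was -0.88 with an adjusted p of 0.062, or 0.024 with TA replicate 2 also left out, an alternative chosen after seeing the data. NR1D1 shares exon bases with THRA, a thyroid hormone receptor gene on the opposite strand, over 18.0% of its annotated exon length (chr17:38249046-38249535). The strand setting of the counting is not given in the sources used here, so reads there cannot be told apart, and THRA itself had a TR of 11.9, an RA of 8.47 and a TA of 2.78 RPKM.

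NR1D2 (chromosome 3, 23986777 to 24022108), which encodes REV-ERB beta, followed another course from its paralogue. Its TR was 14.0 and 17.4 RPKM, its RA 19.8, 33.8 and 45.7 RPKM and its TA 11.4 and 16.3 RPKM. Every RA library lay above every TR and every TA library, as for ARNTL. RA was 1.996-fold above TR (log2 ratio 0.997 ± 0.34, limma, adjusted p = 0.032) and TA 2.29-fold below RA (log2 ratio -1.19 ± 0.34, adjusted p = 0.030). The first call was lost without TR replicate 1 or 2 or RA replicate 2 or 3. The second was lost on centring (log2 ratio -0.69, adjusted p = 0.15) and when any library other than RA replicate 1 or 2 was left out, where the adjusted p lay between 0.052 and 0.18. NR1D1 was 3.86 and 3.96 times NR1D2 in TR, 1.08 to 1.53 times in RA and 3.82 and 5.28 times in TA.

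Ratios of paralogues were also compared between TR and RA over libraries. The mean log2 ratio of CRY1 to CRY2 was -0.99 in TR and 1.18 in RA, that of NR1D1 to NR1D2 was 1.97 and 0.44, and that of PER1 to PER2 was 1.14 and 2.32. In each of these 3 pairs no RA library overlapped a TR library, while the share of all gene pairs without overlap was not worked out. The ratio of PER1 to PER3, a further pair, did overlap, at 9.78 and 7.17 in TR and 10.7, 5.77 and 13.5 in RA. In an exact two-sided permutation test p was 0.2 for each of the 3 pairs first named, also after Benjamini-Hochberg adjustment over them. That is the smallest two-sided value that the 10 arrangements allow, so this test could not reach 0.05.

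DBP (chromosome 19, 49133287 to 49140636), the output activator, was the highest member in TR and had the largest folds between replicates in RA and TA. Its TR was 69.0 and 79.7 RPKM, its RA 13.8, 15.2 and 49.1 RPKM and its TA 10.9 and 41.6 RPKM. All RA and TA libraries lay below both TR libraries. The log2 ratio of RA to TR was -1.76 ± 0.66 (limma, adjusted p = 0.043), and the call was lost when TR replicate 1 or 2 or RA replicate 1 or 2 was left out, without a filter on low values, without a trend in the variances and on centring. The log2 ratio of TA to RA was -0.034, with an interval from -1.56 to 1.49. SPHK2, on the opposite strand, shares 10.2% of the exon bases annotated for DBP and had a TR of 79.8 and an RA of 6.60 RPKM. The exon length behind the DBP values was 1811 bases, against 6485 in the annotation, so it is unknown whether the shared bases were counted, and the part of SPHK2 reads in DBP was not tested.

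The activators of the loop, ARNTL and CLOCK, were set against its 7 repressors within each library, as the difference between the median log2 levels of these groups. Activators were above repressors by 0.77 and 0.83 in TR, by 0.78, -0.38 and -0.13 in RA, and by -0.34 and -0.83 in TA. Both TR libraries were thus above both TA libraries, RA replicate 1 lay with TR, and RA replicates 2 and 3 lay near TA replicate 1. For RA to TR the log2 ratios had a median of -0.26 over activators and 0.34 over repressors. For TA to RA the medians were -1.09 and 0.089. TA libraries lay wholly below RA libraries for 4 of the 10 members, a share near the 43.8% of all genes. These 4 were both activators and the repressors PER3 and NR1D2. The comparisons of activators with repressors describe 2 and 7 genes and carry no test, because genes are not replicates of a parameter. Activators also differed between themselves in RA against TR, where ARNTL was called above and CLOCK below.

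**Figure D4:**
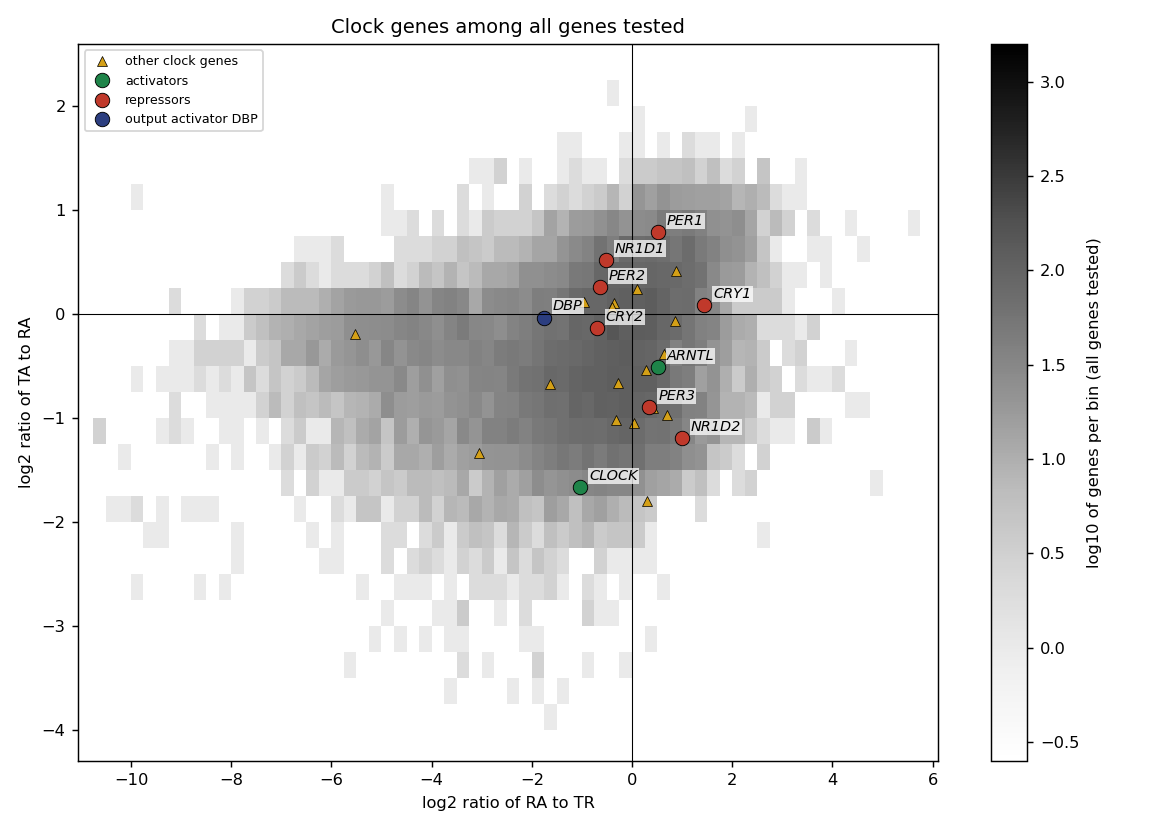
Log2 ratio of TA to RA against log2 ratio of RA to TR for activators, repressors, DBP and other clock genes, over a grid of all 14305 genes tested, shaded by the log10 of genes per bin. Of the members, CLOCK is lowest on the vertical axis at -1.66, PER1 highest at 0.79, and CRY1 farthest to the right at 1.45.

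The spread among replicates was itself uneven over the clock genes. DBP was 3.55- and 3.22-fold higher in RA replicate 3 than in RA replicates 1 and 2, and 3.83-fold higher in TA replicate 2 than in TA replicate 1. For PER1 these folds were 2.62, 2.29 and 1.96, and for NR1D1 they were 2.32, 1.92 and 1.99. In the TR libraries, replicate 2 over replicate 1 was only 1.16 for DBP, 1.01 for PER1 and 1.28 for NR1D1. A fold of at least 1.5 in RA replicate 3 over both other RA libraries together with one of at least 1.5 in TA replicate 2 over 1, a threshold chosen after these values were seen, was met by these 3 members and by 2.65% of all genes tested. The median fold over all genes was 0.976, 0.995 and 1.004 for the same pairs of libraries.

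CLOCK, PER2, CRY2 and NR1D2 were also highest in RA replicate 3 and in TA replicate 2, each with at least 1 of these folds under 1.5. The share of all genes highest in both libraries was not worked out. For PER2, however, the fold of 3.37 in RA replicate 3 over replicate 1 was above those of PER1 and NR1D1. CLOCK was 2.20- and 1.47-fold higher in RA replicate 3 than in replicates 1 and 2 and 1.33-fold higher in TA replicate 2, and CRY2 1.77-, 1.32- and 1.126-fold. ARNTL, PER3 and CRY1 did not stand highest in RA replicate 3. ARNTL was 0.802 and 0.989 times its level of RA replicates 1 and 2 in RA replicate 3, and 0.795 times in TA replicate 2. CRY1 was 2.50-fold higher in RA replicate 3 than in replicate 1, but 0.980 times replicate 2, and TA replicate 2 was 1.01 times replicate 1. PER2 was 3.37- and 1.53-fold higher in RA replicate 3 and 1.36-fold higher in TA replicate 2, and NR1D2 2.30-, 1.35- and 1.44-fold. The labels do not tie RA replicate 3 to TA replicate 2, and whether culture, harvest or library preparation differed was not tested.

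**Figure D5:**
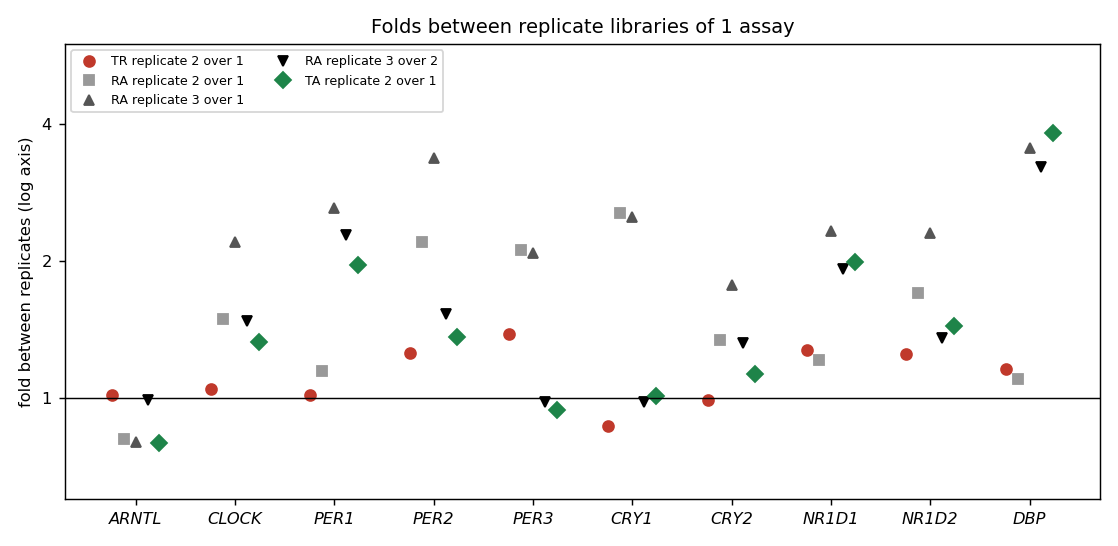
Fold between replicate libraries of the same assay for each clock gene, on a log axis, with a line at 1. DBP, PER1 and NR1D1 are raised at least 1.5-fold in RA replicate 3 over both other RA libraries and in TA replicate 2. CLOCK, PER2, CRY2 and NR1D2 are raised in the same libraries, with at least 1 of these folds under 1.5. The share of all genes raised in both libraries at any fold was not worked out. The fold between TR libraries is at most 1.38, for PER3.

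Of 21 other genes of the clock, 17 passed the filter on low values. RA was above TR for 3 of the 17, against 19.2% of all genes, and below it for 3, against 48.0%. TA was below RA for 5 and above it for 0, against 29.2% and 6.66%. The count above was also 0 at an unadjusted p under 0.05 in limma, where the share of all genes was not worked out. Median log2 ratios of the 17 genes were 0.046 for RA to TR and -0.54 for TA to RA.

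Among the other activators, NPAS2, a paralogue of CLOCK, had a TA of 6.02 and 7.17 RPKM under an RA of 14.4, 11.5 and 14.5 RPKM (log2 ratio -1.02 ± 0.19, limma, adjusted p = 0.0067). ARNTL2, the paralogue of ARNTL, had a TA of 1.96 and 2.82 RPKM under an RA of 8.85, 7.66 and 8.88 RPKM (log2 ratio -1.80 ± 0.23, adjusted p = 0.0031). After centring, ARNTL2 (log2 ratio -1.30, adjusted p = 0.0057) was still called and NPAS2 was not (-0.52, adjusted p = 0.064). Leaving out RA replicate 3 and TA replicate 2 was an alternative chosen after seeing the data. It left 1 TA library, and the calls of NPAS2 and ARNTL2 were lost in limma. The share of all genes called in that fit was not worked out. RORA, an activator that competes with REV-ERB proteins, had a TR of 5.57 and 4.84 RPKM from 218 and 314 reads, but its RA rested on 7, 4 and 0 reads and its TA on 0 in both libraries.

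Of the other repressors, TIMELESS, which also acts at replication forks, had an RA above TR (log2 ratio 0.64 ± 0.24, limma, adjusted p = 0.040). Among kinases and ubiquitin ligases, FBXW11, which recognises phosphorylated PER proteins, was above TR in RA (0.71 ± 0.18, adjusted p = 0.0079) and below RA in TA (-0.97 ± 0.18, adjusted p = 0.0065). GSK3B, a kinase, was lower in TA than in RA, with a log2 ratio of -1.05 ± 0.18 (limma, adjusted p = 0.0057). After centring neither FBXW11 nor GSK3B was called lower in TA. CSNK1E, a PER kinase, was listed at an RA of 1.02, 0.138 and 1.58 RPKM under a TR of 4.997 and 7.80 RPKM (log2 ratio -3.05 ± 0.91, adjusted p = 0.017), but a readthrough gene on the same strand shares 18.5% of its exon bases and its reads are uncertain. Of the outputs, NAMPT, the rate-limiting enzyme of NAD salvage, had RA above TR (0.87 ± 0.24, adjusted p = 0.011), and WEE1, a kinase that holds cells before mitosis, had RA below TR (-1.63 ± 0.49, adjusted p = 0.018), a call lost on centring.

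For each member, the gene with the most similar profile was taken as the one at the smallest Euclidean distance over the 7 libraries on the log2(RPKM + 0.1) scale. It was DPP9 for ARNTL (distance 0.35), SIK1 for CRY2 (0.45), PRSS3 for PER3 (0.57), AMN1 for CRY1 (0.69), CROCCP2 for CLOCK (0.72), TMEM231 for PER2 (0.74) and DYM for NR1D2 (0.78). The remaining members had more distant neighbours, FERMT2 for PER1 (0.95), UQCC2 for NR1D1 (1.004) and PARD6B for DBP (1.48).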

How the data were processed

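Libraries of HCT116 cells were grouped by their titles into TR (2), RA (3) and TA (2). The authors aligned the reads to hg19 (TopHat, default settings), took exon counts from HTSeq-count and deposited the RPKM of every gene in each library. Tool versions, gene annotation, counting mode and strand setting are not given in the sources used here. Exon-only counting leaves out intronic nascent RNA in TR.

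The RPKM values were used without further scaling. Library sizes and reads were solved from them, with 100% of values above 0 within 0.001 of a whole read for 18187 genes. On simulated data 7 of 7 library sizes and the reads of 98.9% of 15259 genes were recovered. Genes were tested one by one with limma 3.58.1 (R 4.3.3) on log2(RPKM + 0.1) with a trend, 7 libraries in 1 fit, genes with a mean of at least 1 RPKM in some parameter, and Benjamini-Hochberg adjustment over 14305 genes. In a simulation of RA against TR, limma called 200 of 200 genes changed by 2 on the log2 scale, and 50 of 14105 unchanged genes. Of these 50, 5 were among the 10608 expected to have at least 40 reads in every library. The simulated noise was equal for all genes and the changed genes were drawn from the better expressed ones. Standard errors of the members for RA to TR, in contrast, ran from 0.18 for ARNTL to 0.66 for DBP. The simulation thus does not measure how reliable the calls of noisy members or of smaller ratios are. Python 3.11.15 with scipy 1.17.1 and matplotlib 3.10.9 was used elsewhere.

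Positions are from GENCODE 44 lifted to GRCh37, where ARNTL is listed as BMAL1. All 10 members are named, and of 21 other clock genes those past a test, except for an item that is counted but not reported here. Members and lists were chosen with earlier results of these data known. Nothing in the labels says that replicates came from separate cultures, though the paper calls them biological, so p-values measure the spread between these libraries. Alternatives were pseudocounts of 0.01 and 1, filters, centring, a replicate block, only the parameters compared, no trend and each library left out.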

Additional observations from a re-analysis of the deposited data

How the results depend on the processing

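Of 320 recomputed log2 ratios of the members, 259 kept their direction and their side of the threshold, 41 lost and 9 gained significance, and 11 changed sign, each with an adjusted p over 0.05 in limma both before and after. Only the main fit's calls could lose significance, 3 members with RA above TR, 3 below and 2 with TA below RA. The 259 are thus no measure of their stability. Both pseudocounts, 0.01 and 1, changed no member's call, nor did a filter of at least 1 RPKM in each parameter. That filter left 1 other clock gene with RA below TR in place of 3, and without a filter there were 5. Centring gave 5 members with RA above TR and 0 below, 1 with TA above RA and 1 below, and 9 other clock genes with RA above TR, 2 with TA above RA and 1 with TA below. It turned the log2 ratio of RA to TR to 0.024 for PER2 and 0.15 for NR1D1, and that of TA to RA to 0.37 for CRY2 and 0.47 for DBP. With only the 2 parameters compared in the fit, 1 member had TA below RA.

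Replicate numbers were shared across the assays, and the study divided its cells among them, but no source used here ties equal numbers to the same culture. The differences between replicates 1 and 2 correlated across genes with an r of 0.085 between TR and RA and -0.505 between RA and TA, where equal numbers thus deviated in opposite directions, and no pairing was taken as given. A replicate block, in which RA replicate 3 carries no weight, gave 5 members with RA below TR, 1 with TA below RA, 0 other clock genes with RA above TR and 1 with TA below RA, and a log2 ratio of TA to RA of 0.068 for CRY2 and 0.55 for DBP. Under it PER2 and NR1D1 were called below TR in RA, and the calls of ARNTL (RA to TR) and NR1D2 (TA to RA) were lost.

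With single libraries left out, where a lone library is assumed to vary like the other groups, members with RA above TR numbered 0 to 3, with RA below TR 0 to 3, with TA above RA 0 to 1 and with TA below RA 0 to 3, and the other clock genes 0 to 4, 1 to 4, 0 to 0 and 3 to 7. Shares of all genes were worked out only for the main fit and centring, as given above. Ratios of TA to RA that changed sign ranged from -0.21 to 0.65 for PER2, -0.35 to 0.32 for CRY1, -0.34 to 0.068 for CRY2 and -0.997 to 0.93 for DBP. RA replicate 3 and TA replicate 2 were also left out together, an alternative chosen after seeing the data that left 1 TA library. The log2 ratio of TA to RA was then -1.58 for CLOCK and -1.18 for NR1D2, and both calls were lost. For RA to TR it was 0.57 for ARNTL, 1.23 for CRY1 and 0.73 for NR1D2, whose calls were lost too. The calls of CLOCK, CRY2 and DBP below TR were kept, and NR1D1 was also called below TR. The difference between activators and repressors was -0.60 for RA to TR and -1.18 for TA to RA. Filters, centring, the trend, fits of only the parameters compared and libraries of the third parameter cannot change it. In every other setting it moved by less than 0.404, the SD between replicates of the difference in levels within a library. That SD includes RA replicate 1, at 0.78 against -0.38 and -0.13 in RA replicates 2 and 3. With a library left out the difference ran from -0.86 to -0.40 for RA to TR and from -1.43 to -0.84 for TA to RA. Apart from fewer libraries or genes in a fit, the cause of these shifts was not tested. The fewest reads behind a member's value were 47, while DBP folds between replicates reached 3.83.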
